A study of Mus musculus with 30 samples.

Results

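Open chromatin was compared among all 6 cultures of wild-type (WT) mouse brain endothelial cells (ECs) that had an ATAC-seq peak list, 2 prepared by isolation method A (R1 and R2) and 4 by isolation method B (R3 to R6). They are 6 of the 10 ATAC-seq libraries with peak lists and of the 30 samples of a study that followed brain ECs from the tissue into culture. Method A lists are shorter, so each list was reduced to its 33152 peaks with the highest -log10 q, the length of the shortest list, and the 6 reduced lists were merged into 46449 regions. The question was which regions and gene neighbourhoods were called after the first way of isolating the cells and not after the second, and the reverse.

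Method A cultures came from adult male C57BL/6J mice, whose brains were minced and digested with papain. Method B cultures came from adult male Ctnnb1flex3/+;Tie2-GFP mice, whose brains were broken up in a Dounce homogenizer and digested with collagenase and dispase. These mice carry a β-catenin allele that was not recombined, since they had no Cre, and GFP under the Tie2 (Tek) promoter. They had received 4-hydroxytamoxifen at P10. The methods do not say clearly whether the C57BL/6J mice had too, but the paper's results describe controls of either line as injected. The cells were kept in culture for 8 days in all, with puromycin, which spares brain ECs, given in the first days and at a higher concentration in method B. Each replicate is a well of cells cultured from pooled brains. R1 and R2, R3 and R4, and R5 and R6 are taken here as 3 experiments, a pairing given for the RNA of these cultures. Method A is thus a single experiment and method B 2, and the fits count each well as a replicate. Isolation method, mouse line and experiment therefore change together and cannot be told apart, and a p-value measures the spread between these wells only. Lists of 2 stabilized β-catenin cultures (Ctnnb1flex3/+;Pdgfb-CreER;Tie2-GFP, method B) and of 2 sorts of ECs taken directly from the brains of Tie2-GFP mice were used only to look up regions.

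ATAC-seq inserts sequencing adapters where DNA is free of nucleosomes, so its peaks mark active promoters and enhancers. ETS factors such as ERG and FLI1 hold many EC enhancers open. AP-1 (Fos and Jun dimers) opens enhancers in stimulated and cultured cells. TEAD factors bind DNA for the Hippo pathway coactivators YAP and TAZ, which respond to stiffness and spreading, and AP-1 and TEAD motifs often occur in the same enhancers.

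The full lists held 50450 and 33152 peaks in method A and 92763, 98840, 84560 and 92976 in method B, so no method A list was as long as any method B list. The local background of the libraries, which follows their depth, was 3.05 and 2.097 cuts per 200 bases in method A and 6.52, 6.05, 3.73 and 4.09 in method B. The last peak kept in R1 had a -log10 q of 9.32, R2 lost none of its peaks (lowest value 1.48), and the method B lists ended between 37.1 (R5) and 51.5 (R4). The first peak left out had the same value as the last kept to within 0.01 in each reduced list. Presence in a reduced list is therefore a rank: a region outside a method B list can still be a strong peak there, whereas a region outside the R2 list was not called at all. Promoters of the 8 EC markers (Pecam1, Cdh5, Tek, Tie1, Kdr, Flt1, Erg and Fli1) had a region in 8, 8, 8, 8, 6 and 5 cases in R1 to R6.

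The wells of each method B experiment were the closest lists, and how far the methods stood apart depended on how the lists were built. A pair of lists shared 86.9% (R3 and R4) and 87.4% (R5 and R6) of the regions in either list within a method B experiment, and 73.3% within method A. Pairs across both method B experiments shared 69.5 to 70.4%, and pairs of a method A with a method B list 61.1 to 71.8%. The mean was 66.1% for pairs of both methods and 69.9% across method B experiments. These means were 59.97 and 67.7% when peaks were ranked by fold enrichment, 51.8 and 65.5% when shared bases were counted, and 41.6 and 68.1% with full lists of unequal length. The mean within methods exceeded that between methods by 9.23 percentage points (exact permutation test, two-sided, p = 0.0667), the smallest p that the 15 ways of choosing 2 of 6 libraries allow. Pairs within methods include wells of the same experiment, and pairs between methods do not. The excess therefore carries the likeness of such wells, and the test cannot set it apart from method. The excess was 12.8 points by fold enrichment rank, 17.7 by shared bases and 29.4 with full lists, each at the same p.

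**Figure D1:**
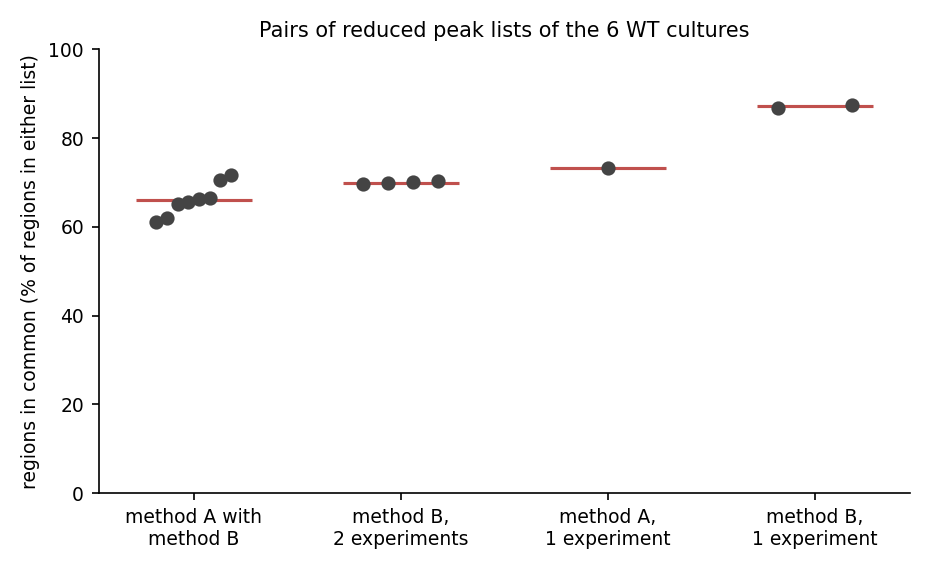
Share of regions in common (y axis, % of the regions in either list) for each of the 15 pairs of reduced lists, grouped on the x axis by the methods and experiments of the pair. Points are pairs and red lines are means. Pairs of a method A with a method B list lie between 61.1 and 71.8%, pairs across method B experiments between 69.5 and 70.4%, and pairs of wells of 1 method B experiment at 86.9 and 87.4%.

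Of the 46449 regions, all 6 reduced lists held 21541 (46.4%), both method A and no method B list held 1318 (2.84%), and all 4 method B and no method A list held 1493 (3.21%). Regions held by R3 and R4 alone numbered 1646 (3.54%) and regions held by R5 and R6 alone 2526 (5.44%), each more than either class that sets the methods apart. This order depended on the ranking. By fold enrichment, R3 and R4 alone held 1872, fewer than the 2169 of method A and 2044 of method B, and R5 and R6 alone held 2555, while with full lists the 21927 regions of method B exceeded the 9648 and 6180 of its experiments. With 2 against 4 libraries, no single region can reach a p under 0.05, so these are counts without a test.

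The regions of both sides differed in height, in part by construction. The method B lists were cut at a -log10 q of 37.1 to 51.5, whereas the R2 list was not cut. The 1318 method A regions were ordinary peaks in method B: 1051 were in all 4 full method B lists and 34 in none. Their median fold enrichment, the pile-up of cuts at the summit over the local background, was 6.02 and 5.16 in R1 and R2 and 5.88, 6.38, 5.83 and 6.37 in R3 to R6, so they stood out by rank and not by height. The 1493 method B regions were tall, at medians of 11.0, 12.3, 13.3 and 15.3 in R3 to R6. Of them, 1013 were low peaks in the full R1 list (median 4.52 for those called) and 480 were in neither full method A list. By definition none was in R2, whose list was not reduced. The part that the lower background, and so depth, of the method A libraries had in these absences was not tested. All 1493 were in both full lists of stabilized cultures, which were also made by method B, as were 1160 of the 1318 method A regions and 44765 of all 46449. In a list of freshly isolated ECs were 253 (16.9%). Of the method A regions, 638 (48.4%) were in a list of freshly isolated ECs, close to the 50.0% of all regions.

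**Figure D2:**
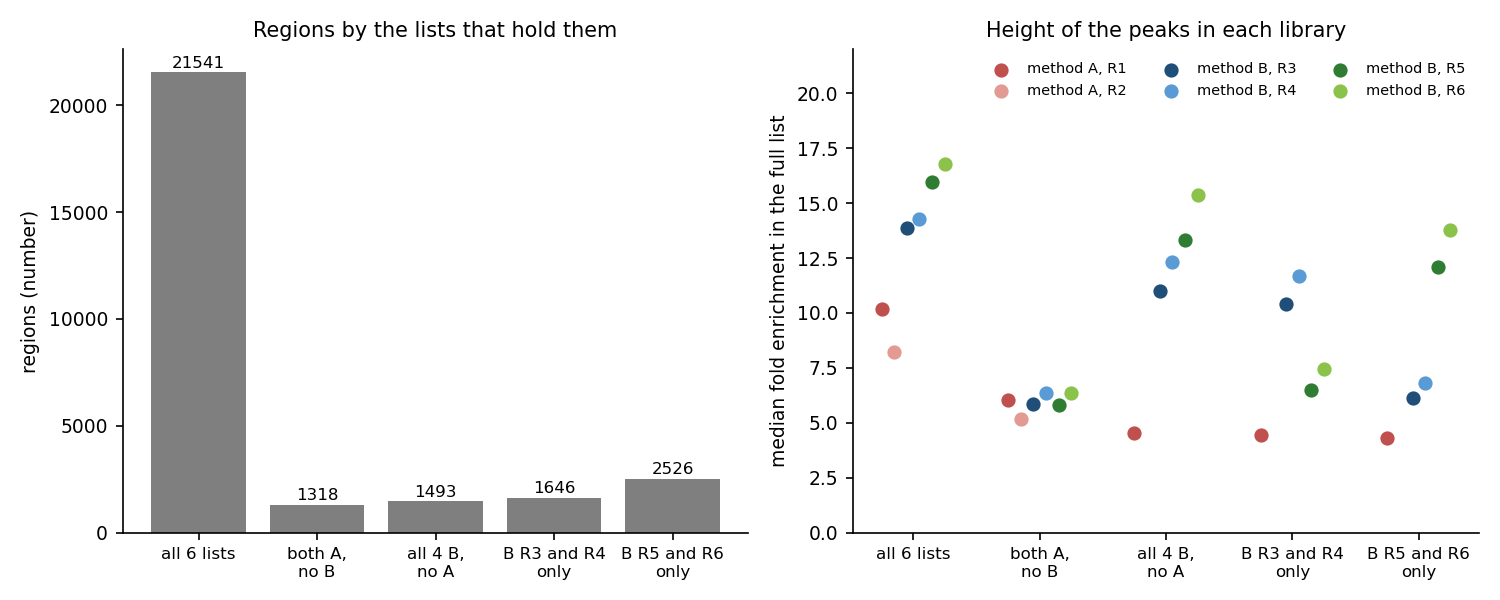
Left, number of regions (y axis) in 5 of the ways in which the 6 reduced lists could hold a region. Right, median fold enrichment (y axis) of the peaks of each class in each library's full list, with 1 point per library. Regions of method A alone lie between 5.16 and 6.38 in all 6 libraries, while regions of method B alone lie between 11.0 and 15.3 in method B and at 4.52 in R1 (R2 called none of them).

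Which method B regions were strongest is shown by the 10 with the highest -log10 q among the 480. The first lies in an intron 86.3 kb from a start site of Sema3e, a secreted semaphorin that signals to ECs through plexin D1. Its fold enrichment was 25.0, 25.4, 20.97 and 23.9 in R3 to R6, it was uncalled in R1 and R2, and it was 15.1 and 15.4 in the stabilized cultures. Sema3e RNA was also higher in method B, at 3.97 and 3.61 TPM in R1 and R2 and 18.9, 16.0, 26.6 and 26.6 TPM in R3 to R6 (log2 2.66 ± 0.26 SE, edgeR adjusted p = 0.00724). The RNA values of the methods did not overlap. The third region lies in an intron of Corin, which encodes a protease of natriuretic peptides, with values of 17.9, 19.0, 19.8 and 22.7 in R3 to R6. Corin RNA stayed between 0 and 0.339 TPM in all 6 cultures, so this open region lay beside a gene with hardly any transcript. From these values near 0, Corin passed as higher in method B (log2 4.81 ± 1.01 SE, edgeR adjusted p = 0.0295). The remaining named regions of this set lie near St7, Ccdc81, Polq, Myh7b, Stk4 (the Hippo pathway kinase MST1) and Senp5, and a pair had no protein-coding start site within 100 kb. Over the 10 regions, fold enrichment ranged from 8.11 (Stk4, R3) to 28.7 (Ccdc81, R6). Only the Ccdc81 region was also in the lists of freshly isolated ECs, at 13.0 and 10.8.

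The summits of 4 method B regions are printed because they show the AP-1 and TEAD letters counted below and lie beside genes described here. Of the windows of this class, 59.4% held either, and those near St7, Fn1 and Jun, for example, held neither. Each line gives 201 bases around the summit on the forward strand of GRCm38.p6, with AP-1 letters (TGANTCA) and TEAD letters (GGAATG, or its reverse complement) in capitals. They lie in an intron of Sema3e (chr5:14111478-14111678), in an intron of Corin (chr5:72491189-72491389), 66.5 kb from the start of Tnfaip3 (chr10:19082179-19082379), and 53.0 kb from the start of Ccn1 (chr3:145702837-145703037). The Tnfaip3 window holds both, with the TEAD letters starting 12 bases before the summit and the AP-1 letters 42 bases after it.
Sema3e region: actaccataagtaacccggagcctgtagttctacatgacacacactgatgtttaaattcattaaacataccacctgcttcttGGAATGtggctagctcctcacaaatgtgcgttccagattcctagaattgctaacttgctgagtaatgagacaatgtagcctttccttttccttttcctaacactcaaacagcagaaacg
Corin region: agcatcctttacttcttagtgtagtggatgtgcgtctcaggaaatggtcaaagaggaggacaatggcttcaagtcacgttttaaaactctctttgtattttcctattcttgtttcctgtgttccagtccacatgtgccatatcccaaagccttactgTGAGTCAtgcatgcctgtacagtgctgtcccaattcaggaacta
Tnfaip3 region: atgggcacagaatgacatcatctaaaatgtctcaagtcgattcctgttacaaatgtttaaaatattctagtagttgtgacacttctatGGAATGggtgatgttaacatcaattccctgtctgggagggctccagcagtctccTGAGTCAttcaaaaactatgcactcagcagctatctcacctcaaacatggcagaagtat
Ccn1 region: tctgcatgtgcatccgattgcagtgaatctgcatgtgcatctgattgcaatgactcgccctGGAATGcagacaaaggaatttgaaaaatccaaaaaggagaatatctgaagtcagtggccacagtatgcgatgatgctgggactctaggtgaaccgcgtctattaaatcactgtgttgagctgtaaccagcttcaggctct

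The 34 method A regions that no full method B list held included many repeats. Of the 32 with a window of known sequence, 12 (37.5%) were masked as repeats over at least 90% of the window, compared with 0.786% of all regions and 1.46% of the 480 method B regions. The tallest, 5.70 kb from a start of the olfactory receptor gene Olfr1055 at chr2:86341812-86342319, had a fold enrichment of 29.0 and 29.6 in R1 and R2 and was in no list of method B, stabilized or freshly isolated cells. The next, 20.99 kb from Actg1 (cytoplasmic γ-actin), reached 15.3 and 15.8. The sixth in rank, 28.4 kb from Sult1c2 (a sulfotransferase), reached 11.8 and 8.40. These 3 windows, on chromosomes 2, 11 and 17, held exact stretches in common of 63 to 68 bases, so reads from the copies may not be told apart. Regions 1 to 7 of the 10 with the highest -log10 q were masked over 98.0 to 100% of the window, and the first unmasked ones were the promoter of Ins2 (insulin; 5.35 and 8.50), an intron of Nod1, a sensor of bacterial cell wall fragments (7.65 and 6.84), and a region near Muc3, a mucin (8.48 and 6.03).

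The Nod1 window (chr6:54954735-54954935, same build, strand and capitals) is printed as the 1 region of these 34 that holds both AP-1 and TEAD letters. Of all 1318 method A only regions, 36 (2.77%) held both.
Nod1 region: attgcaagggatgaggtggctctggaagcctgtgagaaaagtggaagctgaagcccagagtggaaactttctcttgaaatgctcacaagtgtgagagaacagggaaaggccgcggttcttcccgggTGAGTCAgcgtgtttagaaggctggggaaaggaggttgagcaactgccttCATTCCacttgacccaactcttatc

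**Figure D3:**
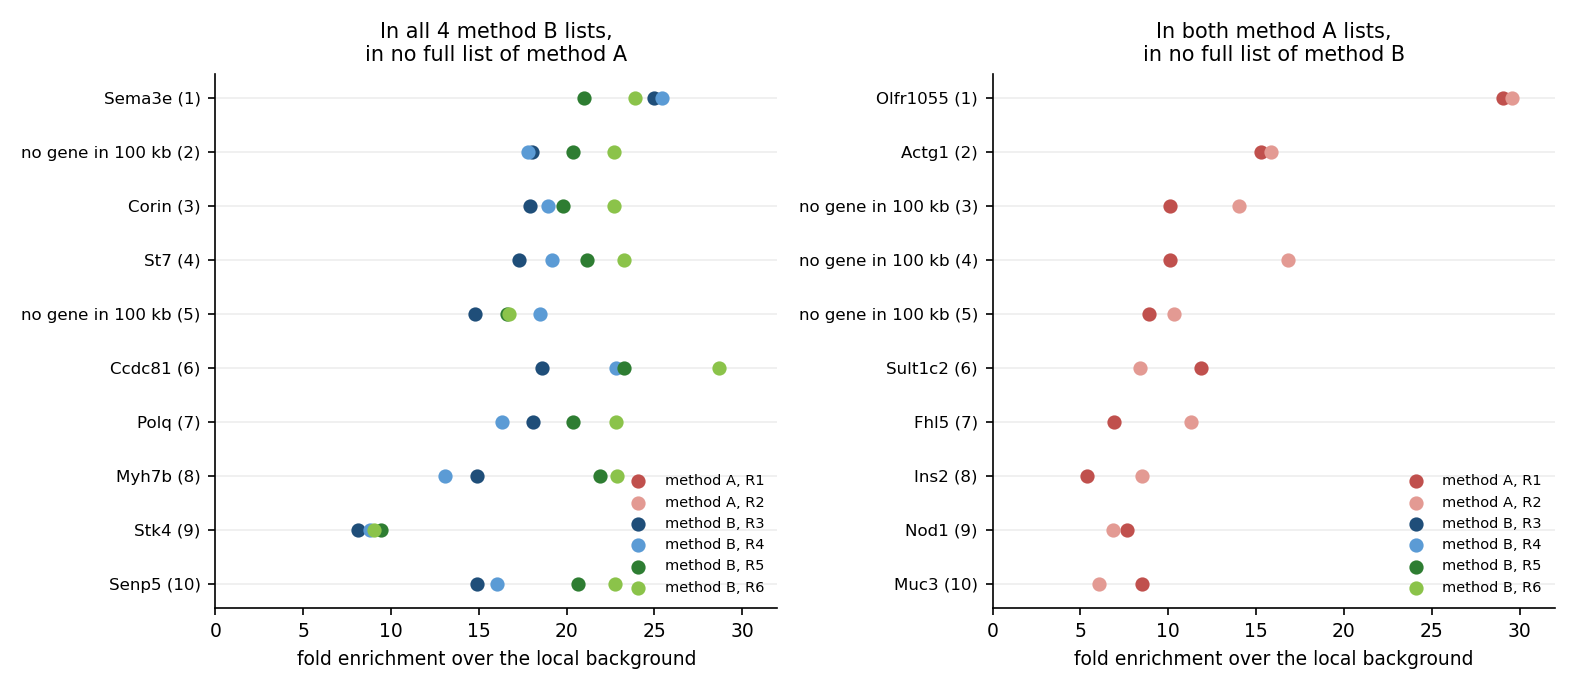
Fold enrichment (x axis) in each library for the 10 regions of each method with the highest -log10 q among those in no full list of the other method (y axis, nearest protein-coding gene and rank). Points are libraries, and a library that did not call the region has no point. Method B regions lie between 8.11 and 28.7, and the first method A region, near Olfr1055, lies at 29.0 and 29.6.

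A stretch of chromosome 8 held many method A regions. Between chr8:55113269 and chr8:55539697, 13 of the 22 regions of that megabase were held by both method A and no method B list, whereas 1476 of 2354 megabases with a region (62.7%) held none. Their fold enrichment in method A ran from 3.62 to 8.62, and the nearest protein-coding start site was 158.5 kb away. Of the 13, 3 were in no full method B list and 12 were in a list of freshly isolated ECs. All 13 were in a list of the stabilized cultures, which were made by method B. This stretch was picked out after its values were seen.

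Promoters were rare and AP-1 and TEAD letters frequent among method B regions. Regions within 1 kb of a protein-coding start site made up 45.1% of the regions of all 6 lists, 14.6% of method A regions and 6.43% of method B regions, against 27.0% of all regions. AP-1 letters stood within 100 bases of the summit in 43.2% of method B windows, 20.9% of method A windows and 28.2% of all windows. TEAD letters stood in 26.7, 12.4 and 17.3% of them, and both together in 10.52, 2.77 and 5.54%. ETS letters (CCGGAA) did not follow this order, at 4.69% of method B, 5.92% of method A and 15.7% of all-6 windows, where promoters prevail. AP-1 letters stayed more frequent in method B than in method A regions with full lists (30.6 and 8.82%), with 20000 peaks per list (44.0 and 27.0%) and when peaks were ranked by fold enrichment (42.4 and 20.6%), settings added after the data were seen. The shares of all regions were 26.6, 27.7 and 28.4% in these settings. With full lists the method B share was thus not far above that of all regions, and method A had only 110 regions. With 20000 peaks the method A share was near that of all regions.

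The same contrast divided the experiments of method B. AP-1 letters stood in 47.4% of the windows held by R5 and R6 alone and in 18.7% of those held by R3 and R4 alone, and TEAD letters in 28.7 and 17.8%. Across the 4 constructions of the lists the AP-1 share lay between 40.9 and 49.6% for R5 and R6 and between 14.5 and 22.6% for R3 and R4. Peaks at AP-1 letters thus differed as much between cultures of 1 method as between methods. These shares count letters in a window; whether a factor bound there was not measured.

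**Figure D4:**
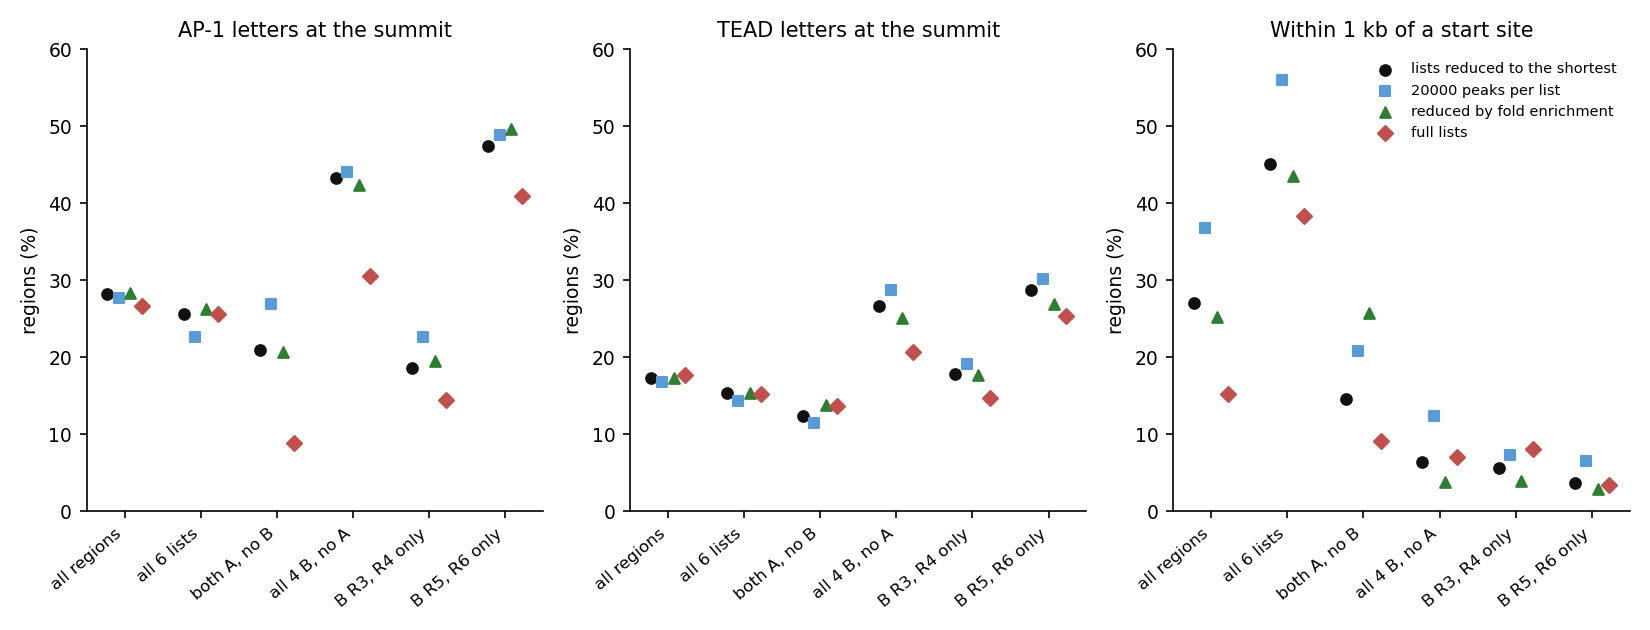
Share of regions (y axis, %) with AP-1 letters (left) or TEAD letters (middle) within 100 bases of the summit, or within 1 kb of a start site (right), for classes of regions by the lists that hold them (x axis). Symbols are 4 ways of building the lists. Regions of all 4 method B lists and regions of R5 and R6 alone hold AP-1 letters in 30.6 to 49.6%, and regions of method A alone or of R3 and R4 alone in 8.82 to 27.0%.

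Heights were then compared at the 29051 regions of all 6 full lists, with limma on log2 fold enrichment after centring each library on its median. Fold enrichment was lower in method A by a median of 0.76 (log2) before centring, so higher and lower here mean relative to the library. Without centring 99 regions were higher in method A and 19742 in method B. Between methods, 9835 regions passed an adjusted p of 0.05 (33.9%), 2578 higher in method B (8.87%) and 7257 higher in method A (25.0%). This fit counted each well as a replicate, although method A has a single experiment. Far fewer regions passed when the wells of an experiment were averaged, which leaves method A with a single value. Quantile normalization gave 6973 (24.0%), with 3280 higher in method B (11.3%) and 3693 in method A (12.7%). Pile-up in place of fold enrichment gave 2837 (9.77%), with 829 (2.85%) and 2008 (6.91%). Without R2 the total fell to 5006. Of the 33 regions named as higher in 1 method in what follows, 17 missed the threshold with pile-up and 20 when the wells of an experiment were averaged, all in the same direction. A region had to be called in the short method A lists to be tested, which leaves out those lowest in method A.

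The experiments of method B again differed. Against method A, 10666 regions (36.7%) passed for R3 and R4 and 12958 (44.6%) for R5 and R6, both of them against the same method A cultures. Between R5 and R6 and R3 and R4, 2317 regions (7.98%) passed, 5.81% after quantile normalization, but 30.1% with pile-up.

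**Figure D5:**
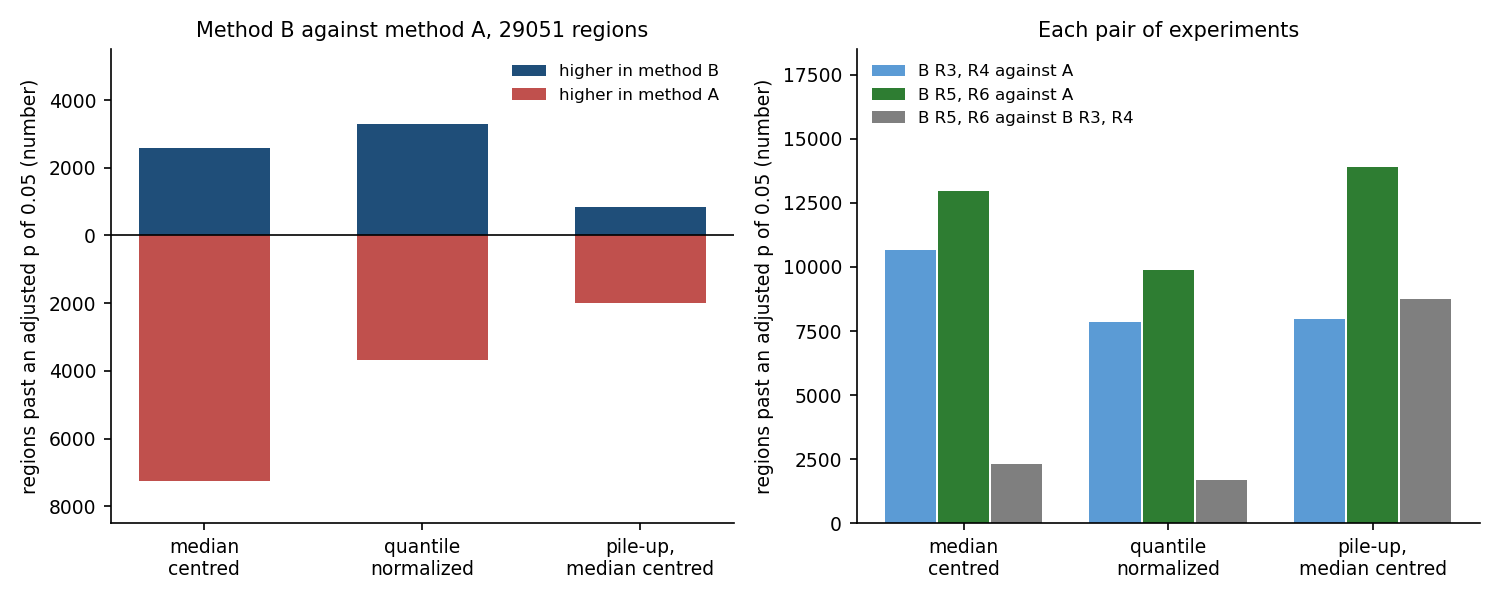
Left, regions past an adjusted p of 0.05 (y axis, number; limma, 29051 regions) that were higher in method B (blue, above 0) or in method A (red, below 0), under 3 scalings (x axis). Right, regions past the same threshold in each pair of experiments. Between the experiments of method B, 2317 regions passed with median centring, 1688 with quantile normalization and 8732 with pile-up.

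Relative to the library, more promoters than other regions were higher in method A, and regions with AP-1 letters leaned to method A less than all regions did. Of 11134 promoter regions tested, 4171 were higher in method A and 419 in method B, with a median difference (method B minus A, log2) of -0.26, against -0.07 for 17917 other regions. Quantile normalization gave -0.12 and 0.05, but with pile-up the order turned, to -0.06 and -0.15, so the direction for promoters rests on how height is measured. Of 7433 regions with AP-1 letters, 1251 were higher in method A and 1088 in method B, 569 and 1327 after quantile normalization and 421 and 295 with pile-up. They had medians of -0.03, 0.09 and -0.06 under these 3 scalings, above the medians of all regions (-0.15, -0.02 and -0.11). Regions with both AP-1 and TEAD letters (1411) had -0.01, 0.11 and 0.03. Regions at least 90% masked (104) had a median of -0.49, with 47 higher in method A and 16 in method B, and 45 regions on unplaced scaffolds and the mitochondrial genome had -0.66, with 28 higher in method A.

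The largest differences towards method B were in regions away from promoters. A region 31.1 kb from Car2, a carbonic anhydrase, had fold enrichments of 5.18 and 6.14 in R1 and R2 and 21.4, 22.6, 27.4 and 30.3 in R3 to R6 (log2 1.40 ± 0.15 SE, limma adjusted p = 0.0012). An intron of Srpk2, a kinase of splicing factors, had 5.43 and 4.84 against 18.5, 20.8, 25.7 and 24.8 (1.36 ± 0.11, adjusted p = 0.0012). The others lie on chromosomes 5 (1.42) and 14 (1.40), without a gene within 100 kb, and in an intron of Gm6665 (1.35), where R5 and R6 also exceeded R3 and R4 (0.58, adjusted p = 0.019). All 5 remained past the threshold under quantile normalization. With pile-up, the regions on chromosome 14 (limma adjusted p = 0.0618) and in Gm6665 (0.093) missed it, and the others passed. Towards method A, 3 of the 5 largest lie in unplaced or repeated sequence: an unplaced scaffold (-1.99), a masked region near Aadac, an esterase gene (-1.99), and a masked region near Adgre5, which encodes CD97 (-1.91). The other two lie on chromosome 17 (-1.997) and in an intron of Sgpp2, a phosphatase of sphingosine-1-phosphate (-1.86; 11.4 and 9.94 against 5.59, 4.11, 4.02 and 6.68). Apart from the scaffold, these were also among the 1318 regions of method A alone, so their differences are descriptions.

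The Car2 window (chr3:14917383-14917583, same build and strand) is printed because it holds AP-1 letters at 2 places, the second of which starts 19 bases before the summit.
Car2 region: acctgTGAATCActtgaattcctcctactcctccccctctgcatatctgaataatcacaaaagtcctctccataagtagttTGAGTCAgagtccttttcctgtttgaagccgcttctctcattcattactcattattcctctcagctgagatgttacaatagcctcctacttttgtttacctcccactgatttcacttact

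Gene groups were read against all protein-coding genes, whose 40363 regions within 100 kb were 2.68% method A only and 2.97% method B only. Of 126 regions of 14 general EC genes, 6 were method A only and 2 method B only. The first were 3 at Erg and 1 each at Fli1, Emcn and Eng. All 6 were in all 4 full method B lists, and the promoter of Emcn, the surface sialomucin endomucin, for example had 5.70 and 4.52 in R1 and R2 and 5.92, 6.31, 4.50 and 6.19 in R3 to R6, groups that overlap. Both method B regions lie at Flt1 (VEGF receptor 1), in an intron with 4.44 in R1, none in R2 and 10.55, 12.2, 14.7 and 15.6 in R3 to R6, and upstream with 5.43 in R1 and 12.9 to 17.1 in method B. At heights relative to the library, 18 of 82 EC gene regions were higher in method A and 6 in method B (10 and 7 after quantile normalization), close to the 25.0% and 8.87% of all regions tested. Examples are an Erg intron (-1.19 ± 0.29 SE, limma adjusted p = 0.0125) and an Ets1 intron (-1.13 ± 0.21, 0.00425) towards method A and a region 15.7 kb from Tie1 (0.75 ± 0.21, 0.0229) towards method B. At the Erg and Ets1 introns the fold enrichments of the methods overlapped before centring, with uncentred log2 differences of -0.432 and -0.365. The promoters of Tek, which the transgene of the method B mice also carries, and of Ctnnb1 were in all 6 reduced lists. Before centring, Tek had 10.1 and 5.59 in R1 and R2 and 9.30, 10.6, 14.8 and 16.7 in R3 to R6, which overlap, and Ctnnb1 had 6.29 and 7.42 against 9.19, 9.45, 14.0 and 13.8.

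Arterial genes held regions of method A alone and none of method B alone, a count without a test. Of 47 regions of 8 arterial genes, 15 were in all 6 lists. Method A only were 5 (10.6%, against 2.68% for all genes), and method B only 0. The 5 were 2 at Sox17, and 1 each at Efnb2 (ephrin B2), Hey1 (a Notch target) and Unc5b (a netrin receptor). All were also in full method B lists, 3 for Efnb2 and 4 for each other region. At Efnb2 and Hey1 the values of the methods overlapped. At Unc5b the intron region had 4.32 and 4.79 in R1 and R2 and 3.22, 3.87, 3.30 and 3.50 in R3 to R6. At the Sox17 region 46.8 kb from its start the methods overlapped, at 6.17 and 4.52 against 8.25, 8.23, 4.65 and 6.09, and freshly isolated ECs stood far above both at 18.9 and 16.6. RNA of the group was split: Unc5b, Hey1, Bmx and Gja5 were higher in method A, and Sox17 and Efnb2 in method B. Of the venous genes, Nr2f2 (COUP-TFII) had a promoter region that was method A only (6.24 and 3.67 against 2.91 to 3.48), while its RNA was higher in method B (log2 1.87 ± 0.39, edgeR adjusted p = 0.0298).

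Genes of contractile and mesenchymal programmes had regions of method B alone and none of method A alone, counts without a test. Heights of the mesenchymal genes pointed both ways. Of 9 regions of 5 smooth muscle genes, 2 were method B only, both at Tagln, and none of the 3 tested in height passed. The promoter of Tagln (transgelin, an actin-binding protein of smooth muscle) was called in no method A list and had 6.49, 8.22, 10.7 and 10.8 in R3 to R6. A second Tagln region 1.0 kb away had 4.31 in R1 and 5.82 to 7.05 in method B. Tagln RNA was 1101 and 707 TPM in method A, and 1243 and 1216 TPM in R3 and R4 and 5723 and 5338 TPM in R5 and R6 (log2 2.06 ± 0.83, edgeR adjusted p = 0.148). Acta2 (smooth muscle actin; 1.99, adjusted p = 0.0342) and Cnn1 (calponin; 2.56, 0.00939) passed the test and rose in method B, whereas Myh11, the defining myosin of smooth muscle, was at or under 7.66 TPM in all 6 cultures. Of 40 regions of 9 mesenchymal transition genes, 3 were method B only (7.5%) and 0 method A only, against 2.97 and 2.68% for all genes. The 3 were 2 at Zeb1, a transcriptional repressor of epithelial genes, and 1 at Fn1 (fibronectin), which had 3.95 in R1, none in R2 and 10.4, 11.4, 17.3 and 19.6 in R3 to R6. Of 27 of their regions tested in height, 3 were higher in method B and 5 in method A, against 8.87 and 25.0% of all regions tested. The 5 lie at the promoters of Snai2, Cdh2, Vim and Fn1 and far from Fn1. RNA of Snai1, Snai2 and Cdh2 was higher in method B (log2 1.97, 3.40 and 0.73, edgeR adjusted p = 0.0166, 0.0243 and 0.0323). None of the 9 was higher in method A. Of all genes tested, 9.47% were higher in method B and 7.05% in method A.

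AP-1 and YAP target genes held regions of 1 method at shares near those of all genes, and some members differed in height or RNA. Of 48 regions of 9 AP-1 genes, 1 was method B only, 19.4 kb from Jun (4.19 in R1, none in R2 and 9.92, 10.4, 16.8 and 16.9 in R3 to R6), and 30 were in all 6 lists. In height, 11 of 39 were higher in method A and 3 in method B (7 and 3 after quantile normalization), against 25.0 and 8.87% of all regions tested. Fos RNA was 601 and 553 TPM in R1 and R2 and 15.7, 14.3, 31.2 and 29.3 TPM in R3 to R6 (log2 -4.51 ± 0.45 SE, edgeR adjusted p = 0.0075). Fosb (-6.07), Atf3 (-2.36) and Junb (-1.67) were lower in method B as well, Fosl1 was higher (1.89 ± 0.20, adjusted p = 0.00808), and Jun did not pass (-0.01, 0.986). Of 57 regions of 10 TEAD and YAP targets, 1 at Amotl2 was method A only and 2, at Amotl2 and Ccn1, were method B only. In height 10 of 34 were higher in method A and 4 in method B, also near the shares of all regions tested. The Ccn1 (CYR61) region had 6.71, 7.80, 8.14 and 8.22 in R3 to R6 and was in no full method A list, while a region 3.51 kb from its start was higher in method A (5.64 and 5.40 against 4.199 to 4.70; -1.06 ± 0.17, limma adjusted p = 0.00245). Ccn2 (CTGF) also pointed both ways, with its promoter higher in method A (-1.29 ± 0.18, but -0.13 by pile-up) and a region 14.1 kb away higher in method B (0.67 ± 0.14). RNA of 4 of the 10 was higher in method B (Ccn2, F3, Axl and Ajuba) and of none in method A, against 9.47 and 7.05% of all genes tested. Ccn1 RNA did not pass (0.52, 0.301). Thbs1 (thrombospondin 1) had 6 regions, 3 of them in all 6 lists and none of 1 method.

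Barrier genes held regions of 1 method about as often as all genes. Of 66 regions of 18 blood-brain barrier genes, 0 were method A only and 2 (3.03%) method B only, in an intron of Ocln (occludin; 5.43 in R1, none in R2 and 9.63, 10.8, 10.2 and 13.6 in R3 to R6) and near Foxf2 (4.71, none, and 6.88 to 8.76). Slco1c1, the thyroid hormone transporter of brain ECs, had 1 region in all 6 reduced lists and none of 1 method. Its strongest difference was in an intron, at 5.18 and 4.84 in R1 and R2 and 3.46, 4.40, 3.81 and 4.32 in R3 to R6 (-1.10 ± 0.18, limma adjusted p = 0.0026). Slco1c1 RNA was also higher in method A, at 17.7 and 21.3 TPM against 1.03, 0.778, 1.38 and 1.94 TPM (log2 -3.55 ± 0.30, edgeR adjusted p = 0.00564). Slc16a1, a lactate transporter, was higher in method B (1.16, adjusted p = 0.0111), and Mfsd2a, a lipid transporter, stayed at 1.62 to 5.23 TPM in all 6 cultures, with 1 of its 2 regions in all 6 lists. For β-catenin targets, Lef1 RNA was higher in method B (4.46 and 5.31 TPM against 16.6 to 21.3; log2 2.15 ± 0.25, 0.00912), with a region 90.8 kb from its start higher in method B (0.66 ± 0.13, limma adjusted p = 0.00545) and another, 46.6 kb away, that was method A only.

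Regions of inflammatory genes were split, while the RNA calls were all towards method A. Of 53 regions of 11 adhesion and inflammation genes, 3 were method B only, near Vcam1 (4.44 in R1, none in R2 and 13.0 to 14.5 in method B), Cxcl12 (4.44, none, and 8.80 to 17.3) and Tnfaip3 (uncalled in both, and 15.04, 13.9, 20.2 and 22.5), and 1 at Ccl2 was method A only. These made up 5.66 and 1.89% of the regions, against 2.97 and 2.68% for all genes. RNA of Cxcl1, a neutrophil chemokine, was higher in method A, at 232 and 245 TPM against 5.18, 6.01, 19.1 and 23.7 TPM (log2 -3.92 ± 0.44, edgeR adjusted p = 0.00835). Sele RNA was too (-1.60, 0.0413), which makes 2 of the 11, and RNA of none was higher in method B. RNA of Vcam1 (-1.74, 0.205), Cxcl12 (0.33, 0.679) and Tnfaip3 (0.74, 0.576) did not pass. In height, 5 of 32 regions were higher in method A and 1 in method B, against 25.0 and 8.87% of all regions tested. Interferon genes had no region of 1 method among 17, where the shares for all genes were 2.68 and 2.97%. RNA of 4 of the 8 was higher in method A and of none in method B, against 7.05 and 9.47% of all genes tested. The log2 differences ran from -3.45 to -2.59 for Ifit1, Ifit3 and Gbp2. The Ifit3 promoter had 10.9 and 10.8 in R1 and R2, 11.5 and 11.3 in R3 and R4 and 8.67 and 8.78 in R5 and R6, so relative to the library it was lower in R5 and R6 than in R3 and R4 (-0.58, limma adjusted p = 0.0318). Cd34, a marker of sprouting ECs, had both kinds: a region 10.8 kb from its start was method A only, and a region 29.7 kb away had 7.40 and 4.197 in R1 and R2 and 20.4, 23.3, 25.3 and 26.8 in R3 to R6 (1.33 ± 0.13, adjusted p = 0.0012).

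The remaining groups held 1 to 3 regions of 1 method each. Of 39 regions of 6 flow and KLF genes, 1 was method A only, 72.6 kb from Klf4, a shear-responsive factor, with 5.63 and 6.95 in R1 and R2 and 7.53, 8.56, 6.77 and 6.09 in R3 to R6, and 18.8 and 17.7 in freshly isolated ECs. The groups overlapped there. Of 47 regions of 11 β-catenin targets, 2 were method A only (Lef1 and Nkd1) and 1 method B only (Apcdd1), and of 23 regions of 8 proliferation genes 1 was method B only, 54.7 kb from Ccnd1 (4.10 in R1, none in R2 and 9.05 to 10.8 in method B). For all genes, 2.68% of regions were method A only and 2.97% method B only. RNA of 3 of the 8 proliferation genes was higher in method A, those of Mki67, Top2a and Pcna (log2 -4.55, -2.48 and -1.09, edgeR adjusted p = 0.015, 0.00457 and 0.0355). None was higher in method B, where the shares of all genes tested were 7.05% for method A and 9.47% for method B. Ccnd1 RNA did not pass (-1.08, 0.272).

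Single regions of these groups went both ways in height relative to the library, and each of the following passed limma's test with its largest difference in that direction. Towards method B were an intron of the drug efflux pump gene Abcb1a (0.67), an intron of Esm1 (0.81), which marks tip cells, an intron of the Hippo kinase Lats2 (0.62), an intron of Atf3 (0.53), and regions away from Sp5 (0.82), Fn1 (0.61) and Ccnd1 (0.77). Lats2 for example had 9.62 and 6.46 in R1 and R2 and 18.4, 19.2, 21.1 and 23.7 in R3 to R6 (adjusted p = 0.00243), without overlap. Esm1 RNA went the other way, at 85.9 and 98.5 TPM in R1 and R2 and 12.6 to 16.7 TPM in R3 to R6 (log2 -2.38 ± 0.15 SE, edgeR adjusted p = 0.00529). Atf3 RNA was also higher in method A, and RNA of Abcb1a, Lats2, Sp5, Fn1 and Ccnd1 did not pass. Towards method A were the promoters of Abcg2 (-1.04), Ifit3 (-0.88) and Cd34 (-0.83), an intron of Angpt2 (-1.37), and regions near Fos (-0.86), Junb (-0.96) and Fn1 (-1.15). At the Cd34 promoter the fold enrichments themselves overlapped, at 8.44 and 8.21 in R1 and R2 and 9.29, 7.28, 7.92 and 7.34 in R3 to R6, so the difference there comes with the centring. They also overlapped near Fos, at the Ifit3 promoter and near Fn1. Without centring the log2 differences were -0.096 near Fos, -0.119 at Ifit3 and -0.388 near Fn1.

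RNA was compared between the same methods with edgeR's quasi-likelihood test, in which 2156 of 13051 genes passed (16.5%), 1236 higher in method B (9.47%) and 920 in method A (7.05%). A figure legend of the study counts R5 and R6 of the RNA under method A; its methods section and the genotype labels, followed here, put them under method B. R3 and R4 were also sequenced elsewhere and with longer reads, and without them 8852 genes passed. In RNA, differences between R3 and R4 and R5 and R6 therefore cannot be told apart from differences in how the libraries were made. Leaving out either method A library gave 0 calls in edgeR, with 2297 and 2498 genes at an unadjusted p under 0.05. The RNA calls named here therefore rest on having both R1 and R2. Of genes within 100 kb of a method B only region, 102 of 891 tested were higher in method B (11.4%) and 58 in method A (6.51%). Of genes beside a method A only region, 58 of 721 were higher in method B (8.04%) and 88 in method A (12.2%). These shares lie a few percentage points to the side of the region's method from those of all genes. Narrower sets did not all do so. Beside 2 or more method B only regions, 6 of 80 genes were higher in method B (7.5%) and 3 in method A (3.75%). Beside a method B only region of no full method A list, 28 (9.72%) and 13 (4.51%) of 288 were. Beside 2 or more method A only regions, 4 (5.71%) and 12 (17.1%) of 70 were. Genes whose promoter region was higher in method A hardly differed from all genes, with 390 of 3956 higher in method B (9.86%) and 283 in method A (7.15%). Among genes beside 3 or more regions of 1 method, picked after their values were seen, Sema6a, a transmembrane semaphorin with 3 method B only regions, had higher RNA in method B (2.63 ± 0.52, adjusted p = 0.0251), Mtss1, also with 3 method B only regions, had higher RNA in method A (-0.92 ± 0.18, adjusted p = 0.026), and Mtus1 and Tiam2, with 3 and 4 method A only regions, had higher RNA in method A (-1.40 and -2.20; 0.0153 and 0.0356).

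Markers of other cells were low in all 6 cultures except those of smooth muscle. The summed level of 8 EC markers was 3138 and 3491 TPM in method A and 1200 to 1727 TPM in method B, with Pecam1 at 1832 and 1987 against 526 to 593 TPM (log2 -1.66 ± 0.16, edgeR adjusted p = 0.00724). Of the 8, Pecam1 alone passed the test, and Cdh5 for example had 376 and 473 TPM in R1 and R2, 240.2 and 199.9 in R3 and R4 and 727 and 645 in R5 and R6 (0.16, adjusted p = 0.896). Pecam1 had 5 regions, 1 in all 6 reduced lists and none of 1 method. The 5 smooth muscle markers summed to 1550 and 1072 TPM in method A, 2299 and 2138 TPM in R3 and R4 and 7523 and 7060 TPM in R5 and R6, nearly all of it Tagln and Acta2. Sums were at most 26.3 TPM for pericyte, 59.3 for fibroblast, 20.4 for neuron, 5.20 for microglia and macrophage, 4.05 for astrocyte and 1.78 for oligodendrocyte markers. In cultures, fewer cells of a type and less RNA per cell cannot be told apart, and what part the EC and smooth muscle markers had in the differences between regions was not tested.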

How the data were processed

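Cultured ECs were profiled by ATAC-seq (paired-end, 36 cycles) and RNA-seq on day 8. The authors mapped ATAC-seq reads to GRCm38 with HISAT2 2.1.0, discarded duplicates with Picard, and ran MACS2 2.1.2 on every library alone. Each deposited peak has a fold enrichment over local background (a ratio), a -log10 p, a -log10 q and an integer score (not used), and no read count; pile-up and background were worked out from fold enrichment and -log10 p. The study's later filter on fold enrichment and q would drop 30 to 108 peaks per WT list and was not applied. For RNA, the authors deposited Salmon 0.14.0 estimated counts and TPM per transcript (GENCODE M21). Counts were summed per protein-coding gene and rounded, 17004036 to 57359272 per library. TPM was rescaled to sum to 1000000 over protein-coding genes. These took 94.8 and 94.7% of the deposited TPM in R3 and R4 and 36.2 to 46.9% in the other WT cultures.

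Peaks sharing at least 1 base were merged. A region belongs to the protein-coding gene with the nearest start site within 100 kb. Windows of 201 bases at the summit with the highest -log10 q were read from GRCm38.p6 and searched on both strands. Lists with equal -log10 q were ordered by -log10 p and fold enrichment. Regions of all 6 full lists were fitted with limma 3.58.1 (mean-variance trend) on median-centred log2 fold enrichment, and RNA with edgeR 4.0.16 (filterByExpr, TMM, quasi-likelihood), with Benjamini-Hochberg adjustment over all features and R 4.3.3; DESeq2 1.42.0 was an alternative. Both fits were tested on simulated data. Genes were named by rank of -log10 q or size of difference, as 10 and 5 per direction, and by membership of gene lists. The values of 1 gene called by the RNA fit are not reported here. The regions and lists were chosen with earlier results of these data known. Peak lists carry no depth or counting error per peak, so the number of libraries limits precision. Of the sequence letters, those for NF-kB stood in 0.134% of method B and 1.23% of method A windows, CTCF in 6.90 and 7.84%, IRF in 2.21 and 2.00%, and MEF2 in 3.62 and 2.54%.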

Additional observations from a re-analysis of the deposited data

Results flagged for a closer look

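The 2 experiments of method B differed from each other under the same comparison with method A. In limma, 2317 of 29051 regions differed between R5 and R6 and R3 and R4. Of the 33 regions named as higher in 1 method, 6 did. The regions near Gm6665 (0.58, log2, R5 and R6 minus R3 and R4) and Ccnd1 (0.50), the gene of cyclin D1, were higher in R5 and R6. The regions on the unplaced scaffold (-1.58), near Adgre5 (-0.87), in the Erg intron (-0.83) and at the Ifit3 promoter (-0.58) were lower in R5 and R6. The Ccnd1 region had a fold enrichment of 6.41 and 5.16 in method A, 12.8 and 13.3 in R3 and R4 and 19.3 and 23.2 in R5 and R6. The background of these libraries also moved with the experiment (6.52 and 6.05 cuts per 200 bases in R3 and R4, 3.73 and 4.09 in R5 and R6), and its part in these differences was not tested. None of 85 values checked for a library far from the other method B libraries passed Dixon's limit.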

How the results depend on the processing

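The number of regions of 1 method depends on how lists are cut. A minimum of 10 on -log10 q left 32372 and 20034 peaks in the method A lists, and fewer than the full number by less than 1.5 times in method B. Method A only and method B only regions numbered 110 and 21927 with full lists, 28 and 22794 with full lists at that minimum, 906 and 713 with 20000 peaks, 2169 and 2044 by fold enrichment, and 1218 and 4293 where peaks had to cover at least 50% of the region. Counting a peak by an overlap of 50% of itself changed nothing, since each peak lies inside its region. Leaving out a library gave 1396 to 3767 method A only (3767 without R1, 2894 without R2) and 1650 to 3218 method B only regions (3218 without R1). The likeness within methods, which includes wells of the same experiment, exceeded that between methods in all 3 alternatives, each at p = 0.0667 (exact permutation test).

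Regions past the test (total, higher in method B, higher in method A) numbered 19841, 19742 and 99 without centring, 2837, 829 and 2008 with pile-up, and 2161, 434 and 1727 with the wells of an experiment averaged; quantile normalization gave 3693 higher in method A. Uncentred, 6042 of the 7257 regions higher in method A changed sign. Leaving out a library gave 5006 to 9340 in all, 1576 to 2490 and 3430 to 6850, with the lowest values without R2. The experiments of method B differed at 8732 regions with pile-up. Of the 33 regions named as higher in 1 method, all kept direction in every alternative that gave them a value, and 17 lost significance with pile-up, 10 without centring and 20 with wells averaged.

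Genes past the RNA test numbered 3898 in DESeq2 (2297 and 1601) and 8852 without R3 and R4 (4568 and 4284). Leaving out a library gave 0 to 1471 in all, 0 to 892 higher in method B and 0 to 636 in method A: 0 without R1 or R2, 1053 without R3 (614 and 439) and 1353 without R5 (519 in method A), and 565 in method A without R6. No paired analysis was possible because the methods share no replicate number.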
